A study of Mus musculus with 15 samples.

Results

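The Sfmbt2 repeat miRNAs are small RNAs of the families miR-297, miR-466, miR-467 and miR-669, most of which are cut from 1 intron of the mouse gene Sfmbt2. Of the 1424 mature miRNA rows measured in mouse lung, 67 were named for these 4 families. Of the 67 rows, 39 were tested because their equalized count was above 5 in at least 3 of the 15 libraries. The other 28 rows did not pass this filter on low values, and 24 of those were above 5 in no library. The tested members comprised 5 of 6 miR-297 rows, 14 of 28 miR-466 rows, 8 of 10 miR-467 rows and 12 of 23 miR-669 rows.

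The lungs came from C57BL/6 mice of both sexes, treated at 8 to 12 weeks of age and labelled as 11 weeks old. WT mice carry an unchanged extracellular superoxide dismutase (EC-SOD), an enzyme that removes superoxide outside cells, and R213G mice are homozygous for a variant of it that is released more readily from the tissue matrix. Each mouse received 100 uL into the trachea, either of phosphate-buffered saline (PBS) or of bleomycin at 1 U/mL, a drug that breaks DNA and injures the lung. After 7 days the lungs were flushed through the right ventricle and collected whole. There were 3 WT libraries after PBS and 4 after bleomycin, and 4 R213G libraries after each treatment. Each library was taken as 1 mouse, and if any share a mouse the p-values cover only the spread between libraries. Which library came from which sex was not used here.

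A miRNA hairpin is cut into a duplex whose strands come from its 5p arm and its 3p arm, and a strand loaded into an Argonaute protein represses messenger RNAs that pair with its seed, bases 2 to 8. Sfmbt2 encodes a Polycomb-group protein and is imprinted in extraembryonic tissue, where the paternal copy is expressed and the repeat miRNAs are abundant. The cluster arose in rodents by repeated duplication, so its members are near-identical copies. Reads can be split between such copies in more than 1 way, so the level of a single member is less certain than that of a family and arm.

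Mature sequences from RefSeq (GRCm38.p6) matched 4 of the 67 rows. These are shown because they carry an alternating purine and pyrimidine repeat, and they do not show what the other rows carry. The seed is in capitals, and each sequence reads 5′ to 3′. The first pair below was tested, and the last pair did not pass the filter.
miR-466i-3p: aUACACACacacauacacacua
miR-466q: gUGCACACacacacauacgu
miR-466j: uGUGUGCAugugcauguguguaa
miR-466k: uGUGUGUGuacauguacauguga
The 4 seeds all differ. The longest run in which A and C, or G and U, alternate was 11 bases in miR-466i-3p, 12 in miR-466q, 7 in miR-466j and 9 in miR-466k. The motif ACACAC was present in miR-466i-3p and miR-466q, against 0.655% of the 1679 mature mouse miRNAs with a sequence in this source. Its reverse complement GUGUGU was present in miR-466j and miR-466k, against 1.01% of these miRNAs. Both motifs were searched on the RNA as written. The 1679 hold 4 of the 67 rows, so both shares leave out most members of these families.

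All 4 sequences lie outside Sfmbt2, with genes as GENCODE annotates them on GRCm38. The mature miR-466i-3p lies at chr13:17747552-17747573 on the plus strand, in an intron of Cdk13, which is on the minus strand. The mature miR-466q lies at chr3:28419988-28420007, in an intron of Tnik and on the same plus strand. Mature miR-466k lies at chr3:85467396-85467418, in an intron of Gm37240 on the other strand, and miR-466j at chr10:60960802-60960824, where no other gene is annotated.

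In RefSeq, 82 miRNA genes belong to the 4 families, and 72 of them lie inside Sfmbt2 on chromosome 2. All 72 fall in a single intron, numbered 11 in the principal transcript and 10 in another transcript. No miRNA gene of another name lies there. The intron holds 5 genes of miR-297, 24 of miR-466, 14 of miR-467 and 29 of miR-669. Neighbouring genes follow the order miR-467, miR-466, miR-669 in 12 places. For 34 of the 39 tested members every gene copy lies in this intron. Both miR-297a arms also have a copy on chromosome 7, and 3 members (miR-466i-5p, miR-466i-3p and miR-466q) have their genes only outside. The most copies belong to miR-669a (12 genes), miR-467a (10) and miR-466b (8), while 28 tested members have 1 gene.

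Levels below are on the log2 scale, with 1 added to a count that the authors appear to have equalized between libraries of a group. The libraries summed to 18087289.8 to 24759615.3 equalized counts, which are not read depths. No library pair was identical. A number in the column names, with a meaning not given in the sources used here, was lower in all WT bleomycin than in all WT PBS libraries, so its order and treatment cannot be told apart in WT. All R213G numbers lay below all WT numbers, so the number and genotype cannot be told apart either. In R213G the lower and the higher numbers each held 2 bleomycin and 2 PBS libraries, with the bleomycin libraries first in each. The lung labels were set beside miRNAs of airway epithelium, endothelium and mesenchyme, and no listed marker was at 0 in every library. The same held for the erythroid and muscle miRNAs listed, so this is no test of the label.

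As a group these miRNAs were low to moderate in lung. The 67 rows together held 1099 to 2116 equalized counts per library, a small share of the library sums. Mean log2 levels of the 39 tested members ran from 2.16 to 7.74 with a median of 4.10, against a median of 5.95 over all 818 tested rows. The highest member lay at percentile 63.7 of all tested rows, and 10 members lay above the median of all tested rows.

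The miR-467 family was the highest, with a median log2 level of 6.58, followed by miR-669 at 4.95, miR-466 at 3.80 and miR-297 at 3.63. The highest single members were miR-467a-5p (mean log2 level 7.74, range 7.41 to 8.13), miR-467d-5p (7.32), miR-669a-3p (7.02) and miR-669o-3p (6.99). The ranges of miR-467d-5p, miR-669a-3p and miR-669o-3p over the 15 libraries overlapped, so their order is not firm. Within the miR-669 3p arm, miR-669a-3p took a median of 48.2% of the summed count and miR-669o-3p 47.8%. In the miR-467 3p arm miR-467d-3p took 68.3%, and in the miR-467 5p arm miR-467a-5p took 33.6%. By mean log2 level, the highest members of the other arms were miR-669c-5p, miR-466a-3p, miR-466c-5p, miR-466g (no arm label), miR-297b-3p and miR-297a-5p.

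**Figure D1:**
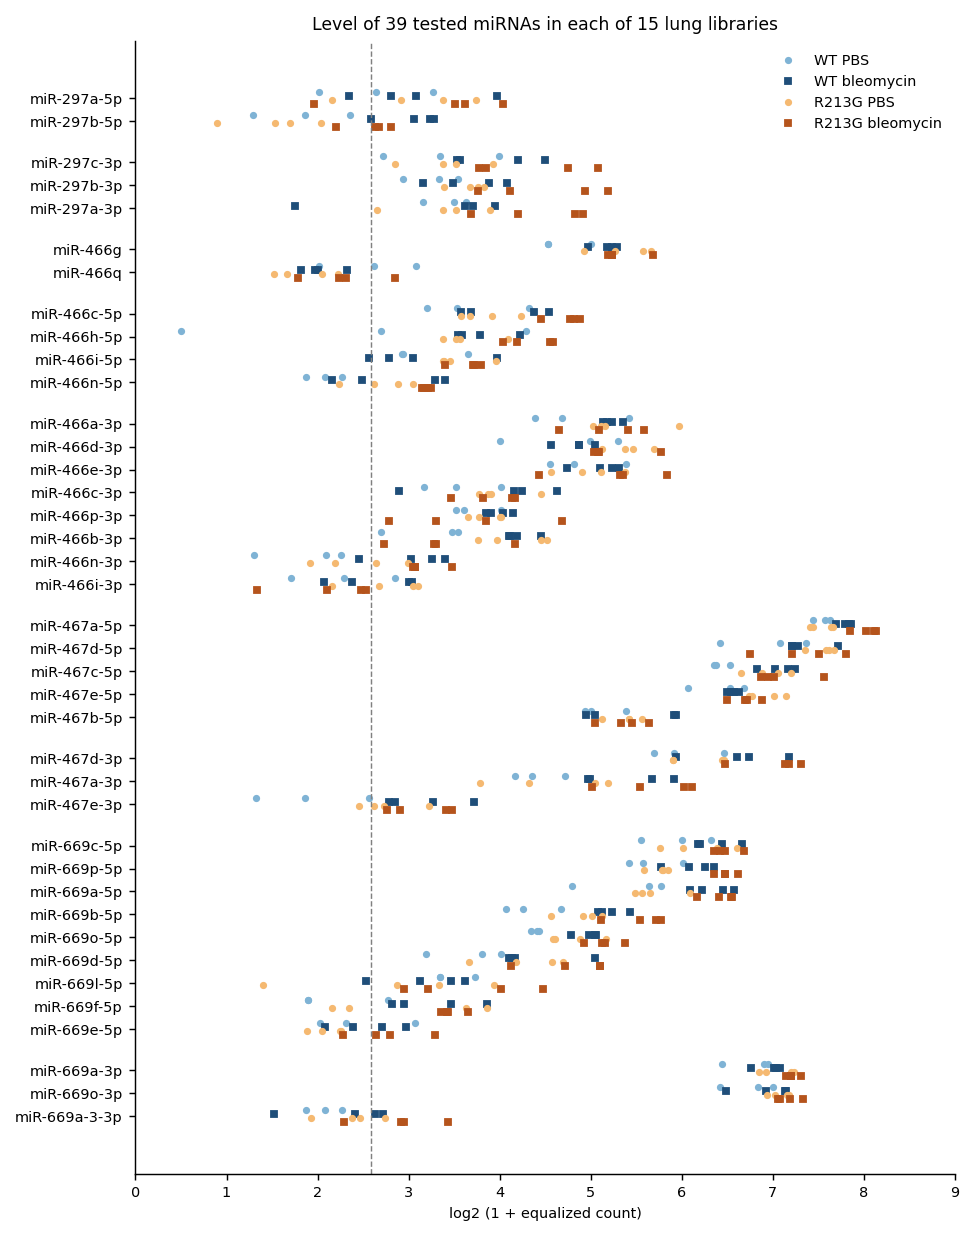
Log2 of 1 plus the equalized count (x axis) of each of the 39 tested members (rows, grouped by family and arm) in every library; each point is 1 library and the dashed line marks an equalized count of 5. The members spread from a mean of 2.16 to 7.74, and the miR-467 5p arm and the best measured 3p members of miR-669 sit farthest right.

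At the edge of the filter, miR-466q was above 5 in 3 libraries, and miR-669e-5p, miR-466i-3p and miR-669a-3-3p in 6 each. Just outside, miR-466f, miR-669e-3p and miR-467c-3p were above 5 in 2 libraries each. Through bleomycin libraries, and not through PBS libraries on their own, 4 members passed (miR-297b-5p, miR-466n-3p, miR-669e-5p and miR-669a-3-3p), so the filter favoured a higher level after bleomycin in them. For miR-297b-5p no PBS library was above 5. In all, 25 members were above 5 in all 15 libraries. Of the 28 rows below the filter, every bleomycin library lay above every PBS library for 4 in WT, against 9.74% of all 606 rows below the filter, and for 2 in R213G, against 7.1%.

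At 7 days after bleomycin part of the group was higher than after PBS in both genotypes, and calls in both were found in the 5p arm of miR-669. In WT lungs 8 of 39 tested members rose, none fell and 31 did not pass (limma, adjusted p under 0.05). Over all 818 tested rows 16.4% rose and 10.3% fell in that comparison, 26.7% in all. In R213G lungs 10 members rose, 1 fell and 28 did not pass, where 22.2% of all tested rows rose and 19.8% fell, 42.1% in all. An unadjusted p under 0.05 was found for 14 members in WT, against 38.3% of all tested rows, and for 13 in R213G, against 49.9%. The share of members that rose was near the background in both genotypes, and the share that fell was below it. Among the 33 members that passed the filter within each treatment, 6 rose and none fell in WT, where 15.4% of such rows rose and 11.3% fell. In R213G 9 of the 33 rose and 1 fell, where 22.1% of such rows rose and 21.9% fell.

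The 39 members had a median log2 difference of 0.41 in WT and 0.43 in R213G, against 0.05 over all tested rows in each. The difference was above 0 for 35 members in WT and 29 in R213G, against 53.2% and 51.6% of all tested rows. With libraries scaled to equal medians the differences of all rows dropped by 0.12 in WT and 0.13 in R213G. The members' medians were then 0.29 and 0.30, with 6 members called higher in WT and 8 higher and 1 lower in R213G. With quantile normalization the members' medians were 0.25 in WT and 0.19 in R213G, with 2 members called higher in WT and 7 higher and 1 lower in R213G. Members above 0 numbered 33 in WT and 27 in R213G with equal medians, and 31 and 26 with quantile normalization. Equal medians turned the calls of all rows from 134 higher and 84 lower to 110 and 121 in WT, and from 182 and 162 to 148 and 199 in R213G.

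Every bleomycin library lay above every PBS library for 12 members in WT, against 18.7% of all tested rows, and for 9 members in R213G, against 21.9%. For no member did every bleomycin library lie below every PBS library, although 13.6% of all tested rows did so in WT and 17.4% in R213G. Rising in both genotypes were miR-669a-5p and miR-669b-5p, and also miR-297b-5p, which the filter favoured. In all, 15 members were called in at least 1 genotype and 24 in neither.

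**Figure D2:**
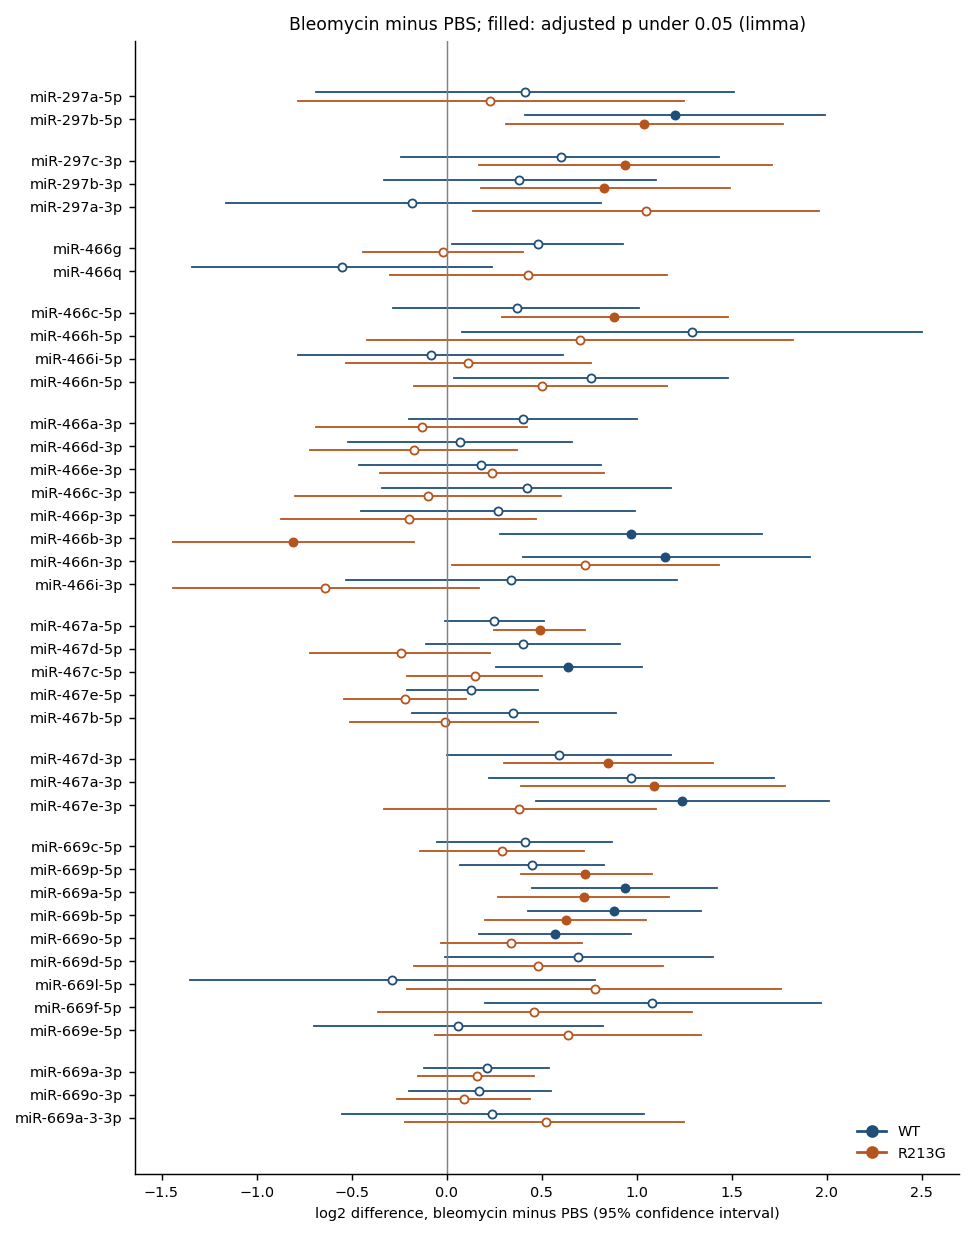
Log2 difference of bleomycin minus PBS (x axis) with its 95% confidence interval for each tested member (rows, grouped by family and arm), in WT and in R213G; filled points passed an adjusted p under 0.05 (limma). Most points lie right of 0 (35 of 39 in WT and 29 in R213G, against 53.2% and 51.6% of all tested rows). The member miR-466b-3p is called on opposite sides in the genotypes.

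The 12 tested members of miR-669, a family whose hairpins alternate with those of miR-467 and miR-466 in the intron, had calls in the 5p arm. Of 9 tested 5p members 3 rose in each genotype, where 16.4% of all tested rows rose in WT and 22.2% in R213G. The median differences were 0.57 in WT and 0.63 in R213G. These medians were 0.45 and 0.49 with equal library medians, and 0.44 and 0.30 with quantile normalization. None of the 3 tested 3p members passed, with medians of 0.21 and 0.16.

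The copy-rich miR-669a-5p stood at 4.79, 5.64 and 5.77 in the WT PBS libraries and at 6.22, 6.58, 6.09 and 6.45 after bleomycin. In R213G it stood at 6.09, 5.56, 5.49 and 5.65 after PBS and at 6.55, 6.41, 6.54 and 6.17 after bleomycin. The treatment groups did not overlap in either genotype. The log2 difference was 0.94 ± 0.23 (SE, limma adjusted p = 0.00571) in WT and 0.72 ± 0.21 (SE, limma adjusted p = 0.0125) in R213G. Its partner from the other arm, miR-669a-3p, differed by 0.21 in WT and 0.16 in R213G and did not pass (limma adjusted p = 0.338 and 0.387).

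In WT, miR-669b-5p stood at 4.26, 4.07 and 4.67 after PBS and at 5.13, 5.08, 5.24 and 5.43 after bleomycin, with no overlap, and rose by 0.88 ± 0.22 (SE, limma adjusted p = 0.00579). In R213G it stood at 5.13, 4.56, 4.92 and 5.02 after PBS and at 5.11, 5.54, 5.72 and 5.77 after bleomycin. Those groups overlapped by the bleomycin library at 5.11, and the rise was 0.63 ± 0.20 (SE, limma adjusted p = 0.0191).

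The member miR-669p-5p was called in R213G, where it stood at 5.85, 5.59, 5.79 and 5.78 after PBS and at 6.35, 6.62, 6.48 and 6.48 after bleomycin. The rise was 0.73 ± 0.17 (SE, limma adjusted p = 0.00215), with narrow and separate groups. Its WT difference of 0.45 did not pass (limma adjusted p = 0.0739). The reverse held for miR-669o-5p, which was called in WT at 0.57 ± 0.19 (SE, limma adjusted p = 0.0336) and not in R213G at 0.34. The interaction passed for neither, so a difference between genotypes was not shown. The most abundant 5p member, miR-669c-5p, did not pass at 0.41 in WT and 0.29 in R213G.

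Among the 8 tested members of miR-467, the family with the highest levels, 2 rose in WT and 3 in R213G. Of all tested rows 16.4% rose in WT and 22.2% in R213G. The 3p arm had median differences of 0.97 in WT and 0.85 in R213G over 3 members. The 5p arm had 0.35 and -0.01 over 5 members.

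The most abundant member, miR-467a-5p, had narrow groups. In R213G it stood at 7.66, 7.44, 7.64 and 7.41 after PBS and at 7.85, 8.13, 8.02 and 8.11 after bleomycin. Every bleomycin library was the higher, and the rise was 0.49 ± 0.11 (SE, limma adjusted p = 0.00265). In WT the libraries stood at 7.57, 7.44 and 7.63 after PBS and at 7.69, 7.86, 7.79 and 7.84 after bleomycin. Those groups did not overlap either, but the difference of 0.25 ± 0.12 (SE) did not pass (limma adjusted p = 0.150).

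From the other arm of the same hairpins, miR-467a-3p stood at 4.17, 4.36 and 4.72 in WT PBS and at 4.97, 5.92, 4.99 and 5.67 in WT bleomycin libraries. The groups were separate, and the difference of 0.97 ± 0.36 (SE) narrowly missed the threshold (limma adjusted p = 0.0536). In R213G, where 2 PBS libraries (5.05 and 5.19) overlapped the lowest bleomycin library (5.01), it rose by 1.09 ± 0.33 (SE, limma adjusted p = 0.0144).

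In R213G miR-467d-3p stood at 6.47, 5.90, 6.44 and 5.91 after PBS and at 7.18, 6.48, 7.31 and 7.14 after bleomycin. The lowest bleomycin library lay just above the highest PBS library, and the rise was 0.85 ± 0.26 (SE, limma adjusted p = 0.0154). Its WT difference of 0.59 did not pass (limma adjusted p = 0.131). Its partner miR-467d-5p differed by 0.40 in WT and by -0.24 in R213G, and neither passed.

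In WT miR-467c-5p stood at 6.38, 6.36 and 6.53 after PBS and at 7.17, 7.03, 6.83 and 7.24 after bleomycin, with no overlap, and rose by 0.64 ± 0.18 (SE, limma adjusted p = 0.0145). The scarce miR-467e-3p rose in WT by 1.24 ± 0.36 (SE, limma adjusted p = 0.0174), from 2.56, 1.86 and 1.32 to 2.85, 3.27, 3.72 and 2.78. These low values correspond to few equalized counts. In R213G the differences of 0.15 for miR-467c-5p and 0.38 for miR-467e-3p did not pass.

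Among the 14 tested members of miR-466, 2 rose in WT (miR-466b-3p and miR-466n-3p), where 16.4% of all tested rows rose. In R213G 1 rose (miR-466c-5p) and 1 fell (miR-466b-3p), where 22.2% of all tested rows rose and 19.8% fell. The 8 tested 3p members had a median difference of 0.37 in WT, where all 8 lay above 0. In R213G their median was -0.15, and 2 lay above 0. Of all tested rows 53.2% lay above 0 in WT and 51.6% in R213G.

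The member miR-466b-3p was called in opposite directions. In WT it stood at 3.48, 2.70 and 3.54 after PBS and at 4.11, 4.19, 4.45 and 4.10 after bleomycin, and it rose by 0.97 ± 0.33 (SE, limma adjusted p = 0.0345) with no overlap. In R213G it stood at 4.45, 3.76, 4.52 and 3.97 after PBS and at 3.28, 4.17, 2.73 and 3.30 after bleomycin. It fell by 0.81 there (SE 0.30, limma adjusted p = 0.0406), with 1 bleomycin library at 4.17 inside the PBS range. The interaction was -1.78 ± 0.44 (SE), with the smallest p of any member (0.000975), and did not pass over all 818 rows (limma adjusted p = 0.399).

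Other 3p members of the miR-466 family did not show that pattern at the same size. Reads can be split between such copies, so the values of each member are less certain. The difference of miR-466c-3p was 0.42 in WT and -0.10 in R213G, and that of miR-466p-3p was 0.27 and -0.20, none of which passed. Their interactions were -0.52 and -0.47 (limma adjusted p = 0.817 and 0.831). Nearest in size was miR-466i-3p, at 0.34 in WT and -0.64 in R213G, with an interaction of -0.97 (limma adjusted p = 0.638). Of the 8 interactions of tested miR-466 3p members, 1 lay above 0, against 47.3% of all tested rows. The highest 3p member, miR-466a-3p, differed by 0.40 in WT and -0.13 in R213G, and neither passed.

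In R213G miR-466c-5p stood at 3.92, 3.67, 4.23 and 3.58 after PBS and at 4.46, 4.88, 4.82 and 4.77 after bleomycin. These groups were separate, and the rise was 0.88 ± 0.28 (SE, limma adjusted p = 0.0191). In WT its difference of 0.37 did not pass, and the groups overlapped. The rise of miR-466n-3p in WT was 1.15 ± 0.36 (SE, limma adjusted p = 0.0232), from 2.26, 1.30 and 2.09 to 3.26, 2.45, 3.03 and 3.40, in a member that the filter favoured. Its R213G difference of 0.73 did not pass (limma adjusted p = 0.0887), although the groups did not overlap. The member without an arm label with the highest level, miR-466g, differed by 0.48 in WT and -0.02 in R213G, and neither passed. Of the tested members encoded only outside Sfmbt2, miR-466i-5p differed by -0.08 in WT and 0.11 in R213G, miR-466i-3p by 0.34 and -0.64, and miR-466q by -0.55 and 0.43, with no call.

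The 5 tested members of miR-297 were scarce. In R213G miR-297b-3p stood at 3.83, 3.68, 3.76 and 3.39 after PBS and at 4.11, 3.76, 5.19 and 4.94 after bleomycin, and rose by 0.83 ± 0.31 (SE, limma adjusted p = 0.0403). There miR-297c-3p stood at 3.93, 2.85, 3.38 and 3.52 after PBS and at 3.77, 3.85, 5.08 and 4.75 after bleomycin, and rose by 0.94 ± 0.37 (SE, limma adjusted p = 0.0480). In both members bleomycin replicates 3 and 4 were high and the others lay within or next to the PBS range.

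In WT the differences of 0.38 for miR-297b-3p and 0.60 for miR-297c-3p did not pass. The rise of miR-297b-5p was 1.20 ± 0.37 (SE, limma adjusted p = 0.0241) in WT and 1.04 ± 0.35 (SE, limma adjusted p = 0.0237) in R213G, and the filter had favoured it. Neither miR-297a-5p (0.41 and 0.23) nor miR-297a-3p (-0.18 and 1.05) passed in either genotype.

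Of the 8 WT calls, those of miR-669a-5p and miR-669b-5p were kept in all 15 fits that left out 1 library and in 10 other settings. Their largest adjusted p over these was 0.0406 and 0.0364 (limma). Without WT PBS replicate 2 these were the 2 calls that remained, and 5 members were called without WT bleomycin replicate 2 or 3. Without WT PBS replicate 2 the call of miR-467c-5p was lost (0.61, limma adjusted p = 0.0517, within 0.00598 to 0.0649 over the alternatives). For miR-467e-3p (0.00968 to 0.0794) it was lost without WT bleomycin replicate 3 (1.05, 0.0541), WT PBS replicate 2 (1.21, 0.0537) or WT PBS replicate 3 (0.94, 0.0794). For miR-466n-3p (0.0119 to 0.135) it was lost without WT bleomycin replicate 1 (1.08, 0.0521) or 4 (1.03, 0.0690), or WT PBS replicate 2 (0.86, 0.132). For miR-297b-5p (0.00884 to 0.123) it was lost without WT bleomycin replicate 2 (1.12, 0.0626) or 3 (1.14, 0.0555), or WT PBS replicate 1 (0.93, 0.123) or 2 (1.21, 0.0635). For miR-466b-3p (0.0181 to 0.172) it was lost without WT bleomycin replicate 2 (0.98, 0.0625), 3 (0.89, 0.0805) or 4 (1.01, 0.0558), or WT PBS replicate 2 (0.70, 0.172). For miR-669o-5p (0.0147 to 0.102) it was lost without WT bleomycin replicate 1 (0.54, 0.0613), 2 (0.57, 0.0637) or 3 (0.54, 0.0741), or WT PBS replicate 1 (0.59, 0.0700), 2 (0.55, 0.0920) or 3 (0.57, 0.0590). Quantile normalization ended all 6 calls other than those of miR-669a-5p and miR-669b-5p. Equal library medians ended those of miR-466b-3p and miR-669o-5p, omitting the filter those and that of miR-466n-3p, and fitting only WT those of miR-297b-5p, miR-467e-3p, miR-669o-5p and miR-466n-3p.

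Other WT members passed in some of these fits. Without WT PBS replicate 3 there were 11 calls, with miR-467a-3p (1.12, limma adjusted p = 0.0429, within 0.0289 to 0.164 over the alternatives), miR-466g (0.64, 0.0477, within 0.0477 to 0.299), miR-466h-5p (2.19, 0.00175, within 0.00175 to 0.639), miR-669f-5p (1.37, 0.0332, within 0.0217 to 0.189) and miR-669p-5p (0.62, 0.0187, within 0.0113 to 0.271) gained. Without WT bleomycin replicate 1 those gained were miR-467a-3p (1.11, 0.0399), miR-467d-3p (0.82, 0.0298, within 0.022 to 0.378), miR-669p-5p (0.56, 0.026) and miR-466n-5p (0.99, 0.038, within 0.038 to 0.286). The call of miR-467a-3p was also gained without WT bleomycin replicate 3 (1.10, 0.0438), R213G bleomycin replicate 2 (0.97, 0.0413), or R213G PBS replicate 3 (0.97, 0.0462) or 4 (0.97, 0.0341). It passed with the WT groups alone (0.0397), the stricter filter (0.0484), array weights (1.14, 0.0289) and a term for column numbers (0.0304). Array weights also gained miR-466h-5p (1.79, 0.0133), miR-467d-3p (0.83, 0.022) and miR-669p-5p (0.61, 0.0113), and the term for column numbers gained miR-669f-5p (1.08, 0.0372).

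Of the 11 R213G calls, those of miR-669a-5p, miR-669p-5p, miR-467a-5p and miR-467d-3p were kept in all 15 fits that left out 1 library and in 10 other settings. Their largest adjusted p over these was 0.0366, 0.00897, 0.0223 and 0.0498 (limma). In all, 6 members were called without R213G PBS replicate 2 or 4, and 7 without R213G bleomycin replicate 3 or 4. The call of miR-467a-3p (0.00394 to 0.0554 over the alternatives) was lost without R213G PBS replicate 4 (0.82, limma adjusted p = 0.0554). That of miR-466c-5p (0.00627 to 0.0562) was lost without R213G PBS replicate 2 (0.82, 0.0510) or 4 (0.79, 0.0562). That of miR-297b-5p (0.00859 to 0.145) was lost without R213G PBS replicate 2 (0.82, 0.0777), without R213G bleomycin replicate 1 (0.96, 0.0604) and with quantile normalization (0.66, 0.145). That of miR-669b-5p (0.00768 to 0.0698) was lost without R213G bleomycin replicate 3 (0.56, 0.0513) or 4 (0.55, 0.0618), or R213G PBS replicate 2 (0.51, 0.0698).

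The remaining R213G calls rested on more libraries. That of miR-297b-3p (0.0103 to 0.147) was lost without R213G bleomycin replicate 3 (0.60, limma adjusted p = 0.147) or 4 (0.69, 0.122), or any of R213G PBS replicates 1 (0.89, 0.0535), 2 (0.84, 0.0712), 3 (0.87, 0.0587) and 4 (0.74, 0.103). That of miR-297c-3p (0.0225 to 0.161) was lost without R213G bleomycin replicate 3 (0.70, 0.161) or 4 (0.81, 0.125), or R213G PBS replicate 2 (0.75, 0.142), 3 (0.93, 0.0844) or 4 (0.97, 0.0731). It was also lost, through the shared spread, without WT bleomycin replicate 1 (0.94, 0.0511), 2 (0.94, 0.0571) or 3 (0.94, 0.0509), or WT PBS replicate 2 (0.94, 0.0554). The fall of miR-466b-3p (0.00743 to 0.139) was lost without any 1 of R213G bleomycin replicates 1 (-0.78, 0.0804), 3 (-0.60, 0.139) and 4 (-0.78, 0.0802), of R213G PBS replicates 1 (-0.72, 0.102), 3 (-0.69, 0.109) and 4 (-0.87, 0.0528), or of WT bleomycin replicate 2 (-0.81, 0.0502). Equal library medians and quantile normalization ended the calls of miR-297b-3p and miR-297c-3p. Omitting the filter ended those and the fall of miR-466b-3p, fitting only R213G ended those of miR-297b-3p and miR-466b-3p, and omitting the intensity trend ended that of miR-297c-3p. Gained in R213G was miR-297a-3p (0.0129 to 0.176) without R213G bleomycin replicate 2 (1.29, 0.0337) or WT bleomycin replicate 1 (1.05, 0.0129), with the R213G groups alone (0.0287), with array weights (1.09, 0.0211) and with a pseudocount of 5 (0.82, 0.0348). Also gained were miR-466h-5p with the R213G groups alone (0.70, 0.0344, within 0.0344 to 0.442) and miR-466n-3p with no intensity trend (0.73, 0.0483, within 0.0483 to 0.244).

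With no filter, 6 of the 67 rows rose in WT and none fell, where 9.62% of all 1424 rows rose and 5.41% fell. In R213G 9 rose and none fell, where 13.4% rose and 10.5% fell.

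Within R213G the difference was also taken separately in the libraries with lower and with higher column numbers. These values come from the libraries that gave the calls and are a description of their evenness. The rise of miR-669p-5p was 0.60 and 0.87, that of miR-669a-5p was 0.75 and 0.68, and that of miR-467d-3p was 0.79 and 0.90. Less even were miR-467a-5p (0.29 and 0.69), miR-467a-3p (0.66 and 1.51), miR-669b-5p (0.39 and 0.87) and miR-466c-5p (0.57 and 1.20). The called miR-297 members rose by 0.94 and 1.14 (miR-297b-5p), 0.85 and 0.81 (miR-297b-3p), and 0.77 and 1.11 (miR-297c-3p). The fall of miR-466b-3p was also uneven, with -1.48 in the lower and -0.13 in the higher numbers.

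In the authors' deposited table, 3 tested members had a q-value under 0.05 for bleomycin in R213G, against 11.2% of all 1424 rows (miR-669p-5p at 0.00708, miR-467a-5p at 0.0250 and miR-466c-5p at 0.0388), and in WT none did, against 0.772% of all rows. These are the authors' parametric q-values. By the rank-based q-values of the authors' deposited table no member passed in either genotype, against 0.0% of all rows in each. With groups of 3 or 4 libraries a rank test has few possible p-values, so this is no result about the members. A parametric unadjusted p under 0.05 was found there for 12 members in R213G and 8 in WT. The share of all rows at that threshold was not counted, so these counts have no background beside them.

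Because copies can exchange reads, equalized counts were also summed over every row of a family and arm, including rows below the filter. The sums are a description without a test. The miR-669 5p sum was 212, 197 and 277 in WT PBS and 308, 372, 350 and 348 in WT bleomycin libraries. In R213G it was 347, 220, 273 and 272 after PBS and 371, 404, 422 and 415 after bleomycin. The treatment groups were separate in both genotypes, and the mean was 1.51 times the PBS mean in WT and 1.45 times in R213G. With equal library medians these ratios were 1.40 and 1.32, and the groups were still separate.

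The miR-467 5p sum, the largest of all, was 520 ± 65.1 (SD, n = 3) in WT PBS and 659 ± 42.6 (SD, n = 4) in WT bleomycin libraries, a ratio of 1.27 with no overlap. In R213G it was 659 ± 59.3 (SD, n = 4) and 707 ± 102 (SD, n = 4), a ratio of 1.07 with overlap, which became 0.981 with equal library medians. The miR-467 3p sum had ratios of 1.72 in WT and 1.87 in R213G, with overlap in both.

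The miR-466 3p sum had ratios of 1.26 in WT and 0.945 in R213G, with overlap in both. The WT groups separated when libraries had equal medians. The miR-466 5p sum was 48.0 ± 3.72 (SD, n = 4) in R213G PBS and 76.9 ± 7.39 (SD, n = 4) in R213G bleomycin libraries, a ratio of 1.60 with no overlap. In WT its ratio was 1.43 with overlap. The miR-466 sum of rows without an arm label was separate in WT, with a ratio of 1.36. In R213G that ratio was 1.01, or 0.916 with equal library medians.

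The small miR-297 3p sum had a ratio of 2.09 in R213G without overlap and 1.30 in WT with overlap. The miR-297 5p sum had 1.92 in WT without overlap and 1.52 in R213G with overlap. Both separations were lost with equal library medians. The miR-669 3p sum had ratios of 1.14 and 1.11, with overlap. Over all 67 rows the ratio was 1.33 in WT, where the groups were separate, and 1.22 in R213G, where they overlapped.

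**Figure D3:**
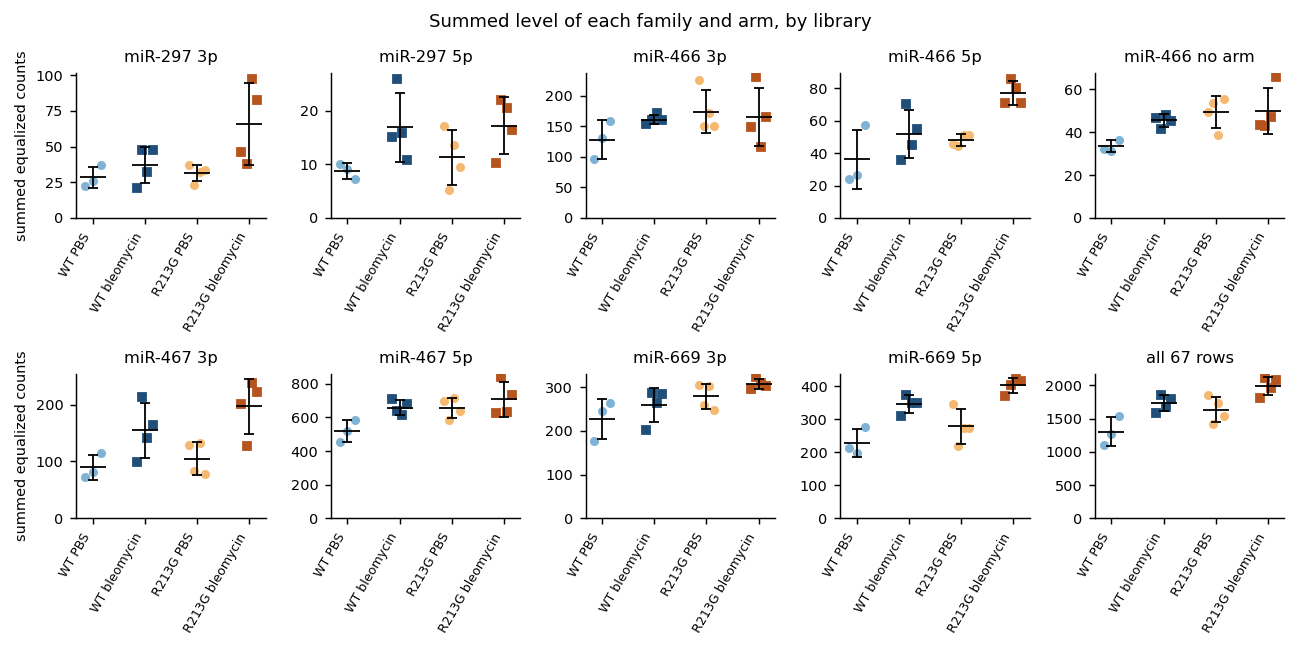
Summed equalized counts (y axis, from 0) of each family and arm, and of all 67 rows, by group; each point is 1 library, and the black mark with bars gives the mean ± SD. In the miR-669 5p panel all bleomycin libraries lie above all PBS libraries of their genotype, with means of 345 against 228 in WT and 403 against 278 in R213G.

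Both arms were tested for 10 hairpins of these families, among 234 in the whole table. The difference between arms, 3p minus 5p, compares the rows named for both arms of a hairpin within a library. Copies can exchange reads, so a row can hold reads of another hairpin. Their part in the arm differences below was not tested. The 3p arm was the higher in all 15 libraries for 3 hairpins and the 5p arm for 2. The miR-297b, miR-669a and miR-669o hairpins leaned to the 3p arm in all libraries, and the miR-467a and miR-467e hairpins to the 5p arm.

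The lean of miR-669a was smaller after bleomycin. Its 3p minus 5p difference was 1.65, 1.26 and 1.17 in WT PBS and 0.54, 0.50, 0.94 and 0.55 in WT bleomycin libraries. In R213G it was 1.14, 1.37, 1.71 and 1.20 after PBS and 0.66, 0.79, 0.76 and 0.98 after bleomycin. All 7 PBS libraries (1.14 to 1.71) lay above all 8 bleomycin libraries (0.50 to 0.98), as in 5.13% of the 234 hairpins. The change was -0.73 ± 0.23 (SE) in WT and -0.56 ± 0.21 (SE) in R213G and missed the threshold in both (limma adjusted p = 0.0547 and 0.0572). Over the alternatives the adjusted p ran from 0.0174 to 0.173 in WT and from 0.0202 to 0.146 in R213G. In WT it passed with equal library medians (-0.78, limma adjusted p = 0.0471), without the intensity trend (0.0174) and without WT bleomycin replicate 3 (-0.83, 0.0398). In R213G it passed without the intensity trend (0.0202).

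The miR-467 hairpins changed the other way in their estimates. For miR-467d the difference was -1.12, -1.46, -1.18 and -1.76 in R213G PBS and -0.03, -1.33, 0.57 and -0.36 in R213G bleomycin libraries, with overlap by the library at -1.33. This shift to the 3p arm was 1.09 ± 0.37 (SE) and passed (limma adjusted p = 0.0366). Among the 234 hairpins 11.1% shifted to the 3p arm and 15.8% to the 5p arm in that comparison, 26.9% in all, and 1 of the 10 did here. The call was lost without any 1 of R213G bleomycin replicates 1 (1.00, limma adjusted p = 0.0915), 3 (0.80, 0.118) and 4 (1.11, 0.0588), without R213G PBS replicate 2 (1.06, 0.0756) or 4 (0.96, 0.0950), and without the intensity trend (0.0548), within 0.00501 to 0.118 over the alternatives. In WT the shift of miR-467d was 0.19 and did not pass.

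Shifts of miR-467a were 0.72 in WT and 0.60 in R213G, and those of miR-467e were 1.10 and 0.60, and none passed. For miR-467a in WT every bleomycin library was nearer to the 3p arm than every PBS library, as in 8.12% of hairpins. For miR-466c in R213G every bleomycin library (-0.63 or lower) was nearer to the 5p arm than every PBS library (-0.36 to 0.53), as in 17.1% of hairpins, and the shift of -0.98 did not pass (limma adjusted p = 0.136). For miR-467a in R213G the shift passed without R213G bleomycin replicate 2 (0.86, limma adjusted p = 0.0385, within 0.0385 to 0.422 over the alternatives). For miR-467e in WT it passed without WT PBS replicate 1 (1.61, limma adjusted p = 0.0201) and with array weights (1.35, 0.0234), within 0.0201 to 0.320. In WT 7.69% of the 234 hairpins passed in either direction, and 0 of the 10 did so here. For no hairpin of the table did the interaction pass, so a difference between genotypes in these shifts was not shown.

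**Figure D4:**
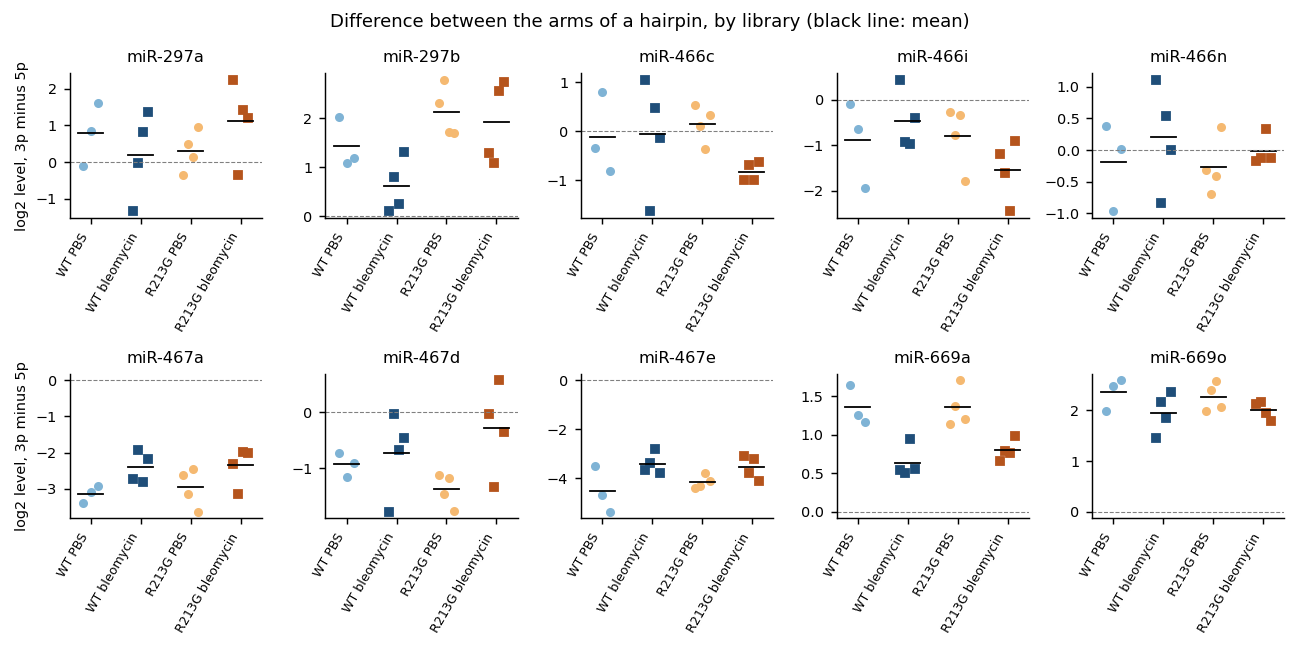
Log2 level of the 3p arm minus that of the 5p arm (y axis, own scale in each panel) of the 10 hairpins with both arms tested, by group; each point is 1 library, the black line is the group mean and the dashed line marks equal arms. For miR-669a all PBS libraries (1.14 to 1.71) lie above all bleomycin libraries (0.50 to 0.98).

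R213G against WT shows whether the variant goes with other levels of these miRNAs before and after injury. After PBS no member was called (limma, 0 of 39, and 0.0% of all tested rows), and 9 had an unadjusted p under 0.05, against 5.38% of all tested rows. The median difference was 0.37, against 0.02 over all rows, and 33 of 39 differences lay above 0, against 54.4% of all rows. Every R213G PBS library lay above every WT PBS library for 4 members, against 4.16% of all rows, and below for 0, against 2.69%. No member had a q-value under 0.05 here in the authors' deposited table, against 0.0% of all rows. A parametric unadjusted p under 0.05 was found there for 3 members, and the share of all rows at that threshold was not counted.

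The smallest p after PBS belonged to miR-466g, at 4.69 ± 0.27 (SD, n = 3) in WT and 5.36 ± 0.33 (SD, n = 4) in R213G, with overlap and a difference of 0.67 ± 0.21 (SE, limma adjusted p = 0.622). Next were miR-467e-5p at 0.49 ± 0.16 (SE) and miR-467c-5p at 0.52 ± 0.18 (SE), both separate between genotypes and both with a limma adjusted p of 0.622. This comparison shares the WT PBS libraries with the WT bleomycin comparison. A WT PBS library was the lowest of all 15 for 25 of the 39 members (64.1%, against 26.3% of all tested rows). WT PBS replicate 1 was the lowest for 13 and replicate 2 for 10. An R213G bleomycin library was the highest for 26 members (66.7%, against 35.7% of all tested rows).

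After bleomycin no member was called between genotypes (limma, 0 of 39, and 0.0% of all tested rows), and 5 had an unadjusted p under 0.05, against 11.9%. The median difference was 0.23, against -0.01 over all rows. Every R213G library lay above every WT library for miR-669a-3p and miR-669p-5p, 2 members, against 3.06% of all rows, and below for 0, against 2.44%. The members with the smallest p were miR-466b-3p, lower in R213G by -0.85 ± 0.30 (SE), miR-297b-3p, higher by 0.84 ± 0.31 (SE), and miR-297a-3p, higher by 1.15 ± 0.43 (SE). Each had a limma adjusted p of 0.387. No member had a q-value under 0.05 in the authors' deposited table, against 0.0% of all rows. A parametric unadjusted p under 0.05 was found there for 3 members, and the share of all rows at that threshold was not counted.

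The interaction, the R213G response minus the WT response, passed for 0 of 39 members (limma, and 0.0% of all tested rows). An unadjusted p under 0.05 was found for miR-466b-3p alone, against 7.95% of all tested rows. The next smallest p belonged to miR-467c-5p (-0.49, limma adjusted p = 0.611) and miR-467d-5p (-0.64, 0.611). The median 95% confidence interval of a member's interaction, unadjusted for the number of rows, reached 0.95 to either side on the log2 scale. Differences of that size and larger between genotypes could go uncalled, as did that of miR-466b-3p at -1.78.

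The lung also changed in its cell markers. After bleomycin 4 of 6 leukocyte miRNAs rose in WT and 3 of 6 in R213G. The log2 of their summed equalized counts was 15.71 to 15.95 in WT PBS and 16.31 to 16.90 in WT bleomycin libraries. In R213G it was 16.14 to 16.27 after PBS and 16.34 to 16.53 after bleomycin. Of 3 erythroid miRNAs 2 fell in WT and 1 in R213G. The log2 of their summed counts was 14.71 to 15.87 in WT PBS and 12.94 to 13.68 in WT bleomycin libraries. In R213G it was 14.24 to 16.07 after PBS and 14.01 to 16.17 after bleomycin. Of 7 epithelial miRNAs 2 fell in WT and 5 in R213G. The log2 of their summed counts was 18.34 to 18.44 in WT PBS and 18.12 to 18.42 in WT bleomycin libraries. In R213G it was 18.32 to 18.53 after PBS and 18.01 to 18.35 after bleomycin. Of 6 lymphocyte miRNAs 2 rose in WT with 1 lower, and 2 rose in R213G with 3 lower. The log2 of their summed counts was 19.65 to 20.11 in WT PBS and 19.14 to 19.61 in WT bleomycin libraries. In R213G it was 19.71 to 19.91 after PBS and 18.90 to 19.42 after bleomycin. Of 4 muscle miRNAs 2 fell in WT and 3 in R213G. The log2 of their summed counts was 14.03 to 16.33 in WT PBS and 13.06 to 13.89 in WT bleomycin libraries. In R213G it was 14.45 to 14.94 after PBS and 12.11 to 13.14 after bleomycin. Of 4 ciliated-cell miRNAs 2 rose in each genotype, of 6 mesenchymal miRNAs 3 rose and 2 fell in each, and of 2 endothelial miRNAs 1 fell in R213G. The summed counts of the ciliated-cell, mesenchymal and endothelial lists overlapped between treatments in both genotypes. The part of these cell markers in the rise of the Sfmbt2 miRNAs was not tested. In whole lung fewer cells of a type and less RNA per cell cannot be told apart.

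The other mouse miRNA clusters listed for comparison had larger median differences. Of 41 tested miRNAs of the imprinted Dlk1-Dio3 cluster, 17 rose in WT with 1 lower, and 23 rose in R213G with 1 lower. The medians were 0.58 and 0.72, and 16.4% of all tested rows rose in WT and 22.2% in R213G. All 7 tested miRNAs of the X-linked cluster from miR-743 to miR-465 rose in both genotypes, with medians of 3.70 and 2.79. Of its 24 measured rows these 7 passed the filter. The log2 of the cluster's summed counts was -1.65 to 3.33 in WT PBS and 6.70 to 7.15 in WT bleomycin libraries. In R213G it was -2.52 to 5.10 and 6.51 to 7.89. At such low PBS levels the filter could favour a higher level after bleomycin, so this count and these medians are not an even comparison. The Sfmbt2 members, with medians of 0.41 and 0.43, lay between these clusters and all tested rows (0.05), and the difference between clusters was not tested.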

How the data were processed

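Small RNA from 15 mouse lungs was sequenced with Illumina protocols, per the labels. The submitters' processing notes name Bowtie2 2.3.2, SAMtools 1.9 and edgeR, with the genome build and miRBase release not given in the sources used here. The authors deposited a log2 value per miRNA and library, beside their own log2 fold changes, p-values and q-values. That the values are log2 of 1 plus an equalized count is inferred from the values. The table's name mentions a unit per length, so division by length is uncertain, and read depth is unknown.

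These log2 values were fitted without rescaling in limma 3.58.1 (R 4.3.3), with 1 mean per group over all 15 libraries and an intensity trend. Benjamini-Hochberg adjustment ran over the 818 rows past the filter. Differences on this scale understate changes of low rows. A second limma fit, added after seeing the data, took 3p minus 5p over 234 hairpins. Both were tested on simulated data. Members and lists were chosen with earlier results of these data known. Named are called members, the highest of each family and arm, the 3 smallest p of contrasts without calls and those next to the filter. Further members were named after their values were seen: arm partners, other 3p members of miR-466, miR-297a arms and miRNAs encoded outside Sfmbt2. Alternatives covered scaling, filter, pseudocount, trend, array weights, replicate number, column number, samples fitted, threshold and leaving out each library. A count over members past the filter within each treatment was added after seeing the data.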

Additional observations from a re-analysis of the deposited data

Results flagged for a closer look

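Within groups of 4 libraries, 8 of 117 member and group combinations held a library far from the other 3, where chance would give about 1 in 20, or 6. The values were 5.97 for miR-466a-3p in R213G PBS replicate 1, 5.69 for miR-466g in R213G bleomycin replicate 4, 5.77 for miR-466d-3p in R213G bleomycin replicate 2, 7.72 for miR-467d-5p in WT bleomycin replicate 1 and 5.05 for miR-669d-5p in WT bleomycin replicate 2. Further values were 1.75 for miR-297a-3p in WT bleomycin replicate 1, 3.96 for miR-466i-5p in R213G PBS replicate 4 and 3.48 for miR-466n-3p in R213G bleomycin replicate 3. In R213G the difference of miR-466a-3p was -0.13 with all libraries and 0.08 without R213G PBS replicate 1.

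The response of miR-466b-3p to bleomycin differed between genotypes by an interaction of -1.78 (unadjusted p = 0.000975), which did not pass over all tested rows (limma adjusted p = 0.399, and 0.101 to 0.798 over the alternatives).

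Among the 28 rows below the filter, every bleomycin library lay above every PBS library in 6 comparisons, 4 in WT and 2 in R213G, against 9.74% and 7.1% of all rows below the filter, and no test was made on them. The log2 differences of means in WT were 1.56 for miR-466k, 0.96 for miR-669f-3p, 0.76 for miR-669h-5p and 0.62 for miR-467b-3p. In R213G they were 0.88 for miR-669f-3p and 1.29 for miR-466o-5p. The miR-466k and miR-467b-3p rows were listed at 0 in all 3 WT PBS libraries, as was miR-669h-5p. In miR-467b-3p and miR-669h-5p the lowest WT bleomycin value was 0.09, a fraction of 1 equalized count.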

How the results depend on the processing

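The count of called members moved from 8 to 5 in WT with the 2 compared groups alone and to 2 with quantile normalization. Leaving out 1 library gave 2 to 11 calls in WT and 6 to 12 in R213G, against 8 and 11. Replicate numbers did not pair the libraries (correlations of -0.14 to 0.26 over 21 same-numbered pairs), and with a replicate block 7 members rose in WT, and 11 rose and none fell in R213G. The block ended the calls of miR-466b-3p in WT (1.02, limma adjusted p = 0.0533) and in R213G (-0.81, 0.0628) and of miR-669o-5p in WT (0.56, 0.0749), and gained those of miR-669f-5p in WT (1.20, 0.0217) and miR-297a-3p in R213G (1.05, 0.0392). Without a filter, 6 and 9 of 67 rows were called, where 9.62% and 13.4% of all 1424 rows rose. The comparisons of R213G with WT and the interaction kept 0 calls without any 1 library. Alternatives were counted over called values, the highest members of each family and arm, the smallest p of contrasts without calls and some arm shifts. Of these alternatives, 1122 kept their side of the threshold, 86 lost it, 10 gained it and 12 changed sign. Values never called are among the 1122, so that count does not measure the stability of the calls. All 86 losses were of called values, and gains outside this set, such as that of miR-467a-3p in WT, are not counted. Leaving out 1 library gave 0.67 at most for miR-297a-5p in R213G, -0.27 at least for miR-466a-3p and -0.16 at least for miR-466g there, and 0.54 at most for the 3p minus 5p shift of miR-467d in WT. In R213G, miR-297a-5p became -0.01 with quantile normalization, -0.02 without R213G bleomycin replicate 2 and -0.06 without R213G PBS replicate 2. There miR-466a-3p became 0.05 without R213G bleomycin replicate 3 and 0.08 without R213G PBS replicate 1. There miR-466g became 0.03 with array weights, and 0.01, 0.02 and 0.03 without R213G bleomycin replicate 1, 2 or 3, and 0.05 and 0.08 without R213G PBS replicate 2 or 4. The 3p minus 5p shift of miR-467d in WT became -0.04 without WT bleomycin replicate 2. The cause of these moves was not tested. The 2 compared groups alone were not run for the interaction, and quantile normalization was not run for the arms. Read depth is unknown, which leaves the precision of low members uncertain.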

Other observations

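The 36 tested members with a gene inside Sfmbt2 had a median bleomycin difference of 0.42 in WT, where 34 lay above 0, and 0.47 in R213G, where 27 did. The 3 members encoded only elsewhere (miR-466i-5p, miR-466i-3p and miR-466q) had medians of -0.08 and 0.11, and the difference between these sets was not tested. Members with a mean above log2 5 had medians of 0.40 in WT (17 of 17 above 0) and 0.16 in R213G (11 of 17). Of all tested rows 53.2% lay above 0 in WT and 51.6% in R213G.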
